A study of Mus musculus with 7 samples.

Results

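Killer lectin-like receptors are C-type lectin-like membrane proteins of natural killer cells and of effector CD8 T cells, and 9 of their genes are described here: Klrg1, Klrk1, Klrd1, Klrc1, Klrc2, Klre1, Klrb1c, Klra7 and Klra9. They were chosen by symbol, and all 9 were found among the 16156 genes of the deposited tables, so none was absent. RNA was sequenced from 3 ACLY KO and 4 WT libraries of mouse CD8 T cells, both described as congenically marked OT-I cells on a C57Bl/6 background. The cells had been given to C57Bl/6 mice 1 day before infection with ovalbumin-expressing Listeria monocytogenes and were recovered 6 days after it. ACLY is ATP citrate lyase, which makes acetyl-CoA in the cytosol. How the gene was deleted and whether each library came from its own animal are not given in the labels, so p-values reflect the spread among libraries, which may be technical. Below, means are given with the SD over the 3 ACLY KO or 4 WT libraries, and log2 differences (ACLY KO minus WT) with their SE.

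The receptors fall into inhibitory and activating kinds. Inhibitory members carry a tyrosine motif that recruits phosphatases, and activating members signal through the small adaptors Hcst (DAP10), Tyrobp (DAP12) or Fcer1g. Naive CD8 T cells carry few of them, and activation brings Klrk1, Klrd1, Klrc1 and, on terminal effector cells, Klrg1 to the surface, while the Klra (Ly49) receptors are best known from natural killer cells.

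The libraries held 37473484 to 39692359 gene counts in ACLY KO and 45288353 to 75586011 in WT. Acly itself was at 262, 62.0 and 209 CPM (a unit scaled to library size, here with TMM factors) in ACLY KO replicates 1 to 3 and at 393, 339, 414 and 276 CPM in WT replicates 1 to 4. The segments Trbv12-1 and Trbv12-2, of the V beta family of the OT-I receptor, took 46.7%, 23.2% and 61.8% of Trbv counts in the ACLY KO libraries, against 99.0%, 99.2%, 99.0% and 84.5% in the WT libraries. WT replicate 4 stood apart from the other WT libraries: 10 cell cycle genes summed to 66.5 to 538 CPM in ACLY KO, 89.8 to 112 CPM in WT replicates 1 to 3 and 2424 CPM in WT replicate 4. The 8 T cell markers, led by Cd8b1 and Cd3e, summed to 2759 to 6493 CPM in ACLY KO and 6351 to 8108 CPM in WT, and 10 B cell markers, led by Ighm and Ighd, summed to 627.5 to 9930 CPM in ACLY KO, with the highest sum in replicate 1, and 237 to 681 CPM in WT. The 12 myeloid genes, led by Ly6c2 (which effector CD8 T cells also express) and Lyz2, summed to 764 to 2284 CPM in ACLY KO and 466 to 2572 CPM in WT, and C1qa alone was at 47.9, 6.84 and 117 CPM in ACLY KO replicates 1 to 3 and at 0.566 to 1.75 CPM in WT. Natural killer markers (13 of 14 measured, led by Txk, which T cells also express, and Tyrobp) summed to 379.8 to 405 CPM in ACLY KO and 171 to 249.8 CPM in WT. Their defining gene Ncr1 was at 10.8, 1.37 and 0.896 CPM in ACLY KO replicates 1 to 3, against 0.0690 and 0.224 CPM in WT replicates 1 and 2 and counts of 0 in WT replicates 3 and 4, which allow up to 0.0576 and 0.0509 CPM (3 counts per library). Genes of NKT and gamma delta cells, led by Trdc and Sox13, summed to 42.1 to 198 CPM in ACLY KO and 24.9 to 351 CPM in WT. Trdc made up most of the sum in every library, so the sum mainly follows that gene. Of the 8 genes measured of 10 listed, 4 had a log2 difference above 0 and 4 below. CD4 T cell genes (5 of 6 measured, led by Ctla4 and Zbtb7b) summed to 27.5 to 231 CPM in ACLY KO and 60.6 to 75.2 CPM in WT. Cd4 itself was at 110, 1.19 and 6.19 CPM in ACLY KO replicates 1 to 3 and at 0 to 0.157 CPM in WT. Of the 5 genes, 3 had a log2 difference above 0 and 2 below. No measured marker was at 0 in all libraries, and markers absent from the deposited tables have no value here. The part of other cells in the results below was not tested, and values without a library do not test it. How the results depend on WT replicate 4 is shown only where values without it are given. In these bulk libraries fewer cells that carry a receptor and less of its RNA per cell cannot be told apart.

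Of the 9 receptor genes, 7 had a lower mean in ACLY KO than in WT and the Ly49 genes Klra7 and Klra9 had a higher one, although Klre1 turned to a log2 difference of 0.0505 when scaled to T cell transcripts. The median log2 difference was -1.22 over the 9 genes and 0.0 over all genes tested. With p-values adjusted over all genes (Benjamini-Hochberg), edgeR's quasi-likelihood test called none of the 9 and no other gene (0.0% of 16156 in each direction). At an unadjusted p under 0.05 edgeR counted 1 lower (Klrd1) and 1 higher (Klra7), where 7.89% and 11.0% of all genes were counted. DESeq2 called Klra7 higher and none lower, where it called 6.81% of genes higher and 3.43% lower. limma voom with quality weights called Klra7 higher and Klrk1 lower, where it called 5.32% of genes higher and 1.68% lower. Without ACLY KO replicate 1 edgeR again called none of the 9, where it called 0.687% of genes higher and 0.297% lower.

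**Figure D1:**
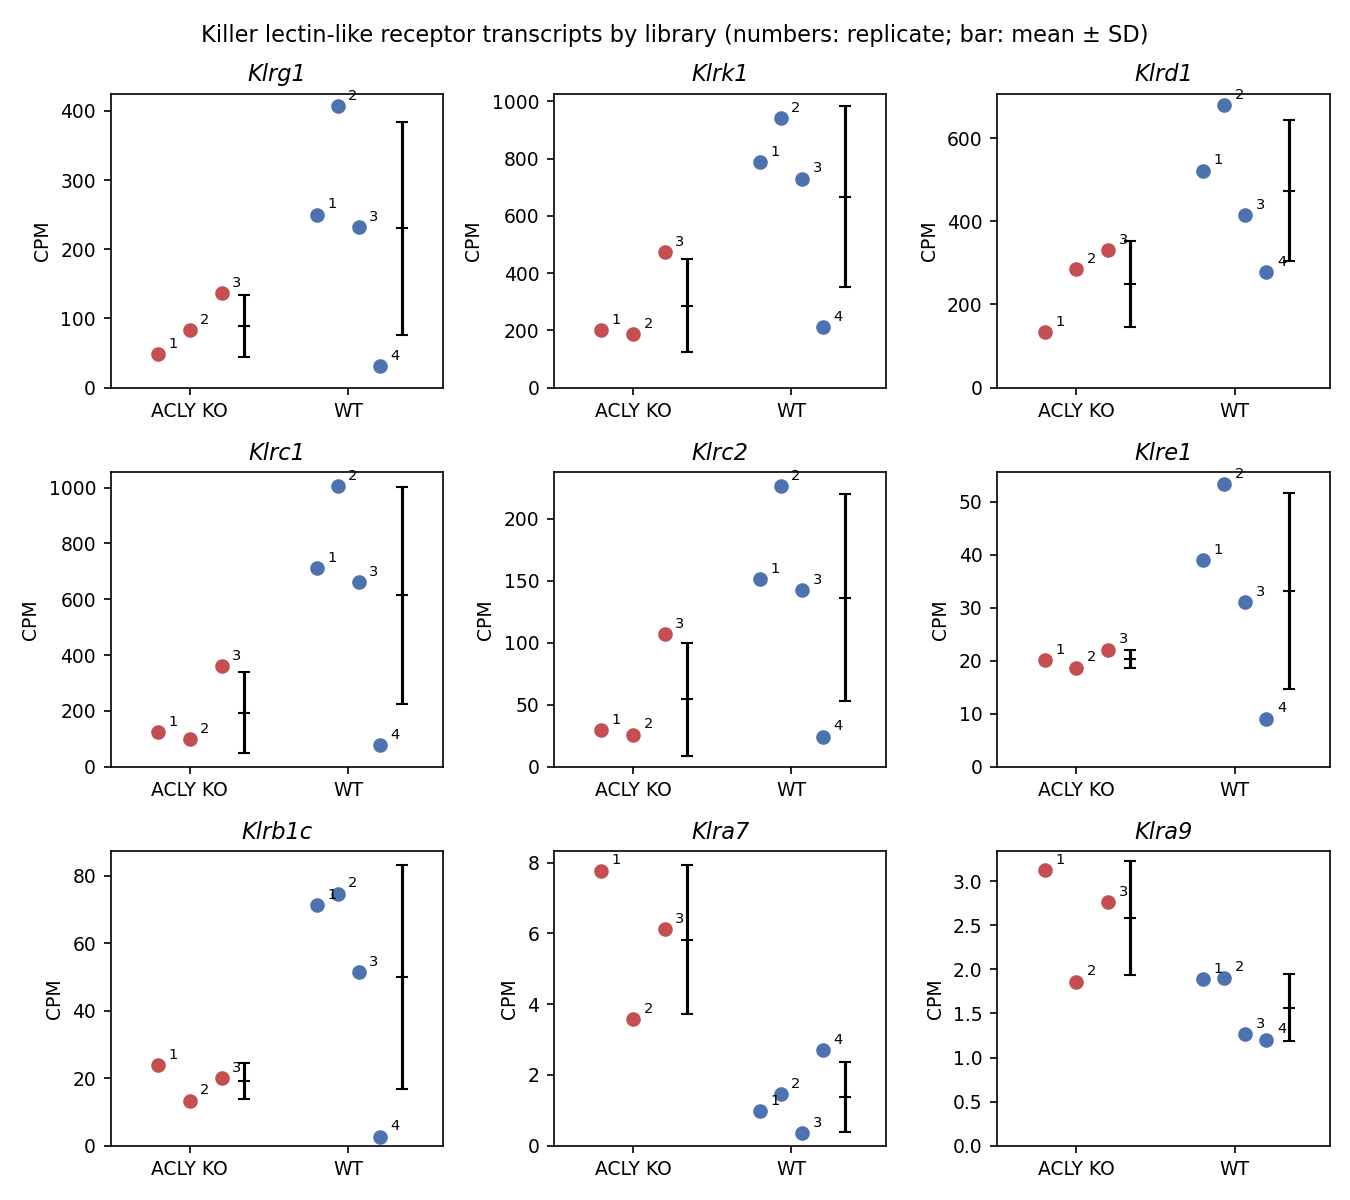
CPM of the 9 receptors (vertical axes, each with its own scale) in the 3 ACLY KO libraries (red, left) and 4 WT libraries (blue, right), with replicate numbers and the mean ± SD as a black bar. WT replicate 4 lies among or below the ACLY KO libraries for all 9 receptors, and Klra7 is the receptor with every ACLY KO library above every WT library.

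Klrg1, the inhibitory cadherin receptor that marks terminal effector cells (mm10, minus strand, chr6:122270596-122282882), was at 48.2, 82.7 and 137 CPM in ACLY KO replicates 1 to 3 and at 250.1, 406, 232 and 31.7 CPM in WT replicates 1 to 4. The ACLY KO libraries lay below WT replicates 1 to 3, and WT replicate 4 lay below them all. The mean was 89.2 ± 44.7 CPM over the 3 ACLY KO libraries, against 230.2 ± 154 CPM over the 4 WT libraries, a log2 difference of -1.37 ± 0.75 (SE; edgeR adjusted p = 0.381). Without WT replicate 4 it was -1.73 ± 0.42 (SE; edgeR adjusted p = 0.0878).

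Klrk1 encodes NKG2D, an activating receptor for stress-induced ligands, which signals in T cells through Hcst (minus strand, chr6:129610323-129623864). It was at 201, 186 and 472 CPM in ACLY KO replicates 1 to 3 and at 787, 941, 730 and 210.5 CPM in WT replicates 1 to 4. ACLY KO replicates 1 and 2 and WT replicate 4 were alike and low, and ACLY KO replicate 3 stood between them and the other WT libraries. The mean was 286 ± 161 CPM over the 3 ACLY KO libraries, against 667 ± 317 CPM over the 4 WT libraries (log2 -1.22 ± 0.55, SE; edgeR adjusted p = 0.288). limma voom with quality weights gave a log2 difference of -1.59 (limma adjusted p = 0.0400), and the adjusted p ranged from 0.0400 to 0.527 over all alternatives.

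CD94, the common chain of the NKG2A and NKG2C heterodimers, is the product of Klrd1 (plus strand, chr6:129591782-129598775). Its transcript was at 134, 284 and 330.3 CPM in ACLY KO replicates 1 to 3 and at 521, 680, 414 and 278 CPM in WT replicates 1 to 4. The groups overlapped, with WT replicate 4 between ACLY KO replicates 1 and 2. Of the 7 receptors with a lower ACLY KO mean it had the smallest gap between WT replicate 4 and the other WT libraries, 1.94-fold. The mean was 249 ± 103 CPM over the 3 ACLY KO libraries, against 473 ± 170 CPM over the 4 WT libraries (log2 -0.92 ± 0.39, SE; unadjusted p = 0.0471 and adjusted p = 0.258 in edgeR).

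Klrc1 encodes NKG2A, the inhibitory partner of CD94 (minus strand, chr6:129666015-129678973). It was at 123, 97.7 and 361 CPM in ACLY KO replicates 1 to 3 and at 712, 1006, 662 and 76.6 CPM in WT replicates 1 to 4. WT replicate 4 was below every ACLY KO library and 10.4-fold below the mean of the other WT libraries. The mean was 194 ± 145 CPM over the 3 ACLY KO libraries, against 614 ± 389 CPM over the 4 WT libraries, 3.17-fold lower in ACLY KO (log2 -1.66 ± 0.83, SE; edgeR adjusted p = 0.334). Without ACLY KO replicate 3 the log2 difference was -2.47 (edgeR adjusted p = 0.211).

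Klrc2 encodes NKG2C, the activating partner of CD94 (minus strand, chr6:129647496-129660689). It was at 29.8, 25.9 and 107 CPM in ACLY KO replicates 1 to 3 and at 151, 226, 142 and 24.3 CPM in WT replicates 1 to 4. The 7 libraries stood in the same order as for Klrc1, with ACLY KO replicate 3 well above the other ACLY KO libraries. Its mean was 54.2 ± 45.8 CPM over the 3 ACLY KO libraries, against 136 ± 83.5 CPM over the 4 WT libraries (log2 -1.33 ± 0.78, SE; edgeR adjusted p = 0.413), and -2.29 without ACLY KO replicate 3 (edgeR adjusted p = 0.188). Klrc1 and Klrc2 are close paralogs: of the 2030 different 50-base words in GENCODE M21 transcripts of Klrc1, 36.5% also occur in transcripts of Klrc2, so reads could be split between them and their levels are uncertain.

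The share of Klrc1 in the summed counts of Klrc1 and Klrc2 ran from 75.9% to 82.5%. Each gene varied about 9.31- to 13.1-fold between libraries, a fold range that is not comparable with a percentage. The words that the genes share make the share uncertain too. The share was 80.6% (95% exact Clopper-Pearson interval 79.5 to 81.6), 79.1% (78.0 to 80.2) and 77.1% (76.5 to 77.7) in ACLY KO replicates 1 to 3. The WT libraries, in the order of their replicate numbers 1 to 4, had 82.5% (82.2 to 82.8), 81.6% (81.3 to 82.0), 82.3% (82.0 to 82.7) and 75.9% (74.8 to 77.0). These intervals cover counting error only, over 5308 to 62616 counts. On average it was 78.9% ± 1.73 (SD) over the 3 ACLY KO libraries, against 80.6% ± 3.14 (SD) over the 4 WT libraries (ACLY KO minus WT, -1.66 percentage points; two-sided exact permutation test, p = 0.429, where 35 splits allow no p below 0.0286). Each ACLY KO library was below each of WT replicates 1 to 3, and without WT replicate 4 the difference was -3.22 percentage points (exact permutation p = 0.1, the smallest that 3 against 3 libraries allow).

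**Figure D2:**
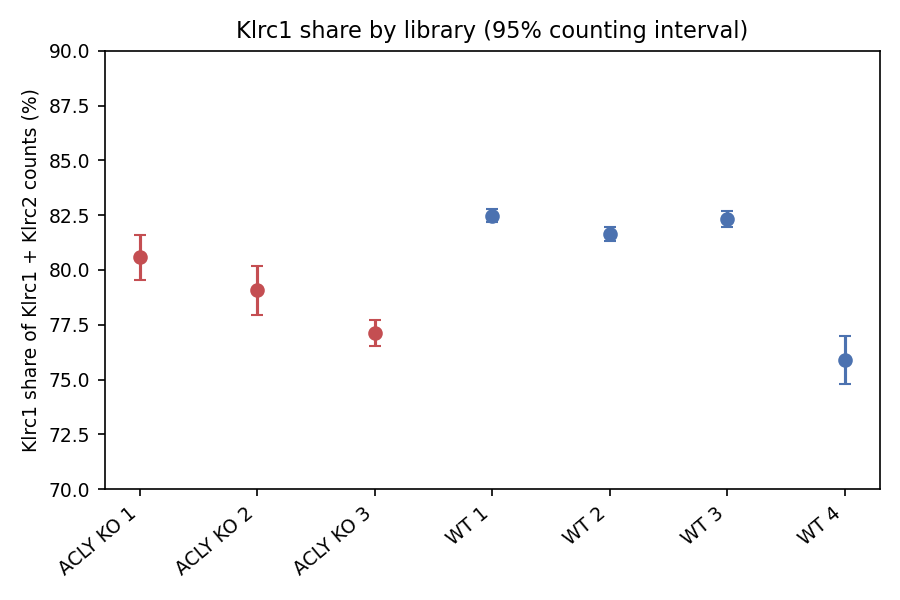
Klrc1 counts as a percent of Klrc1 plus Klrc2 counts (vertical axis, from 70 to 90%) in each ACLY KO (red, left) and WT (blue, right) library, with 95% exact intervals for counting error. WT replicate 4, at 75.9%, is the lowest library, and WT replicates 1 to 3 lie between 81.6% and 82.5%.

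Klre1, a receptor without signalling motifs of its own that pairs with Klri1 or Klri2 in rodents (plus strand, chr6:129577905-129585827), was at 20.2, 18.7 and 22.1 CPM in ACLY KO replicates 1 to 3 and at 39.0, 53.3, 31.1 and 9.05 CPM in WT replicates 1 to 4. The ACLY KO libraries were close to each other and lay between WT replicate 4 and the other WT libraries. The mean was 20.3 ± 1.69 CPM over the 3 ACLY KO libraries, against 33.1 ± 18.5 CPM over the 4 WT libraries (log2 -0.70 ± 0.51, SE; edgeR adjusted p = 0.515). Scaled to T cell transcripts instead of library size its log2 difference turned to 0.0505, while the median of all genes then moved up by 0.72.

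Klrb1c encodes NK1.1, an activating receptor of the NKR-P1 group that signals through Fcer1g (minus strand, chr6:128778485-128789215). It was at 23.9, 13.4 and 19.9 CPM in ACLY KO replicates 1 to 3 and at 71.2, 74.7, 51.4 and 2.71 CPM in WT replicates 1 to 4. WT replicate 4 was 24.2-fold below the mean of the other WT libraries, the widest such gap among the 9 receptors. With all libraries the mean was 19.1 ± 5.31 CPM over the 3 ACLY KO libraries, against 49.99 ± 33.2 CPM over the 4 WT libraries (log2 -1.39 ± 0.89, SE; edgeR adjusted p = 0.452). Without WT replicate 4 Klrb1c was called lower in ACLY KO (log2 -1.79 ± 0.26, SE; edgeR adjusted p = 0.0464), where edgeR then called 0.69% of genes higher and 0.134% lower, and the means were 19.1 ± 5.31 CPM in ACLY KO and 65.8 ± 12.6 CPM in WT (SD, n = 3 each). It was also called without both ACLY KO replicate 1 and WT replicate 4 (log2 -1.96; edgeR adjusted p = 0.0228), where 5.43% of genes were called higher and 4.2% lower. Over all alternatives its adjusted p ranged from 0.0228 to 0.721. Exons of Klrb1c overlap those of Gm44511 on the same strand over 13.9% of their length, so reads there cannot be assigned with certainty.

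Klra7 encodes Ly49G, an inhibitory receptor for class I molecules (minus strand, chr6:130218605-130233322). It was at 7.78, 3.58 and 6.12 CPM in ACLY KO replicates 1 to 3 and at 0.979, 1.46, 0.346 and 2.696 CPM in WT replicates 1 to 4. Every ACLY KO library lay above every WT library, as for 9.46% of all genes, and WT replicate 4 was the highest WT library. These levels rest on 154 to 291 counts per ACLY KO library and 18 to 159 per WT library. The mean was 5.83 ± 2.11 CPM over the 3 ACLY KO libraries, against 1.37 ± 0.995 CPM over the 4 WT libraries, 4.25-fold higher in ACLY KO (log2 2.09 ± 0.66, SE; unadjusted p = 0.0148 and adjusted p = 0.158 in edgeR). DESeq2 called it (log2 2.11; DESeq2 adjusted p = 0.0275), and over all alternatives the adjusted p ranged from 0.0275 to 0.371. Of its 50-base words 12.3% also occur in the pseudogene Klra13-ps, so its level is uncertain.

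Klra9 encodes Ly49I, also inhibitory (minus strand, chr6:130178675-130193112). It was at 3.13, 1.86 and 2.76 CPM in ACLY KO replicates 1 to 3 and at 1.89, 1.91, 1.27 and 1.20 CPM in WT replicates 1 to 4. The groups overlapped, since ACLY KO replicate 2 was below WT replicates 1 and 2. The mean was 2.58 ± 0.651 CPM over the 3 ACLY KO libraries, against 1.57 ± 0.384 CPM over the 4 WT libraries (log2 0.72 ± 0.39, SE; edgeR adjusted p = 0.373). Klra9 shares 31.5% of its 50-base words with other genes (13.1% with Klra3), so its level is uncertain too.

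Beside the lower means stands the position of WT replicate 4, which was below WT replicates 1 to 3 for 8 of the 9 receptors, as it was for 40.8% of all genes, and above them for Klra7, as for 38.0% of all genes. It was the lowest of all 7 libraries for 6 receptors, and WT replicate 2 was the highest for 7. With all libraries no receptor had every ACLY KO library below every WT library, which 9.03% of all genes had. Against WT replicates 1 to 3 alone, 7 receptors had every ACLY KO library below every WT library and 1 had every ACLY KO library above, where 15.8% and 14.5% of all genes did so.

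**Figure D3:**
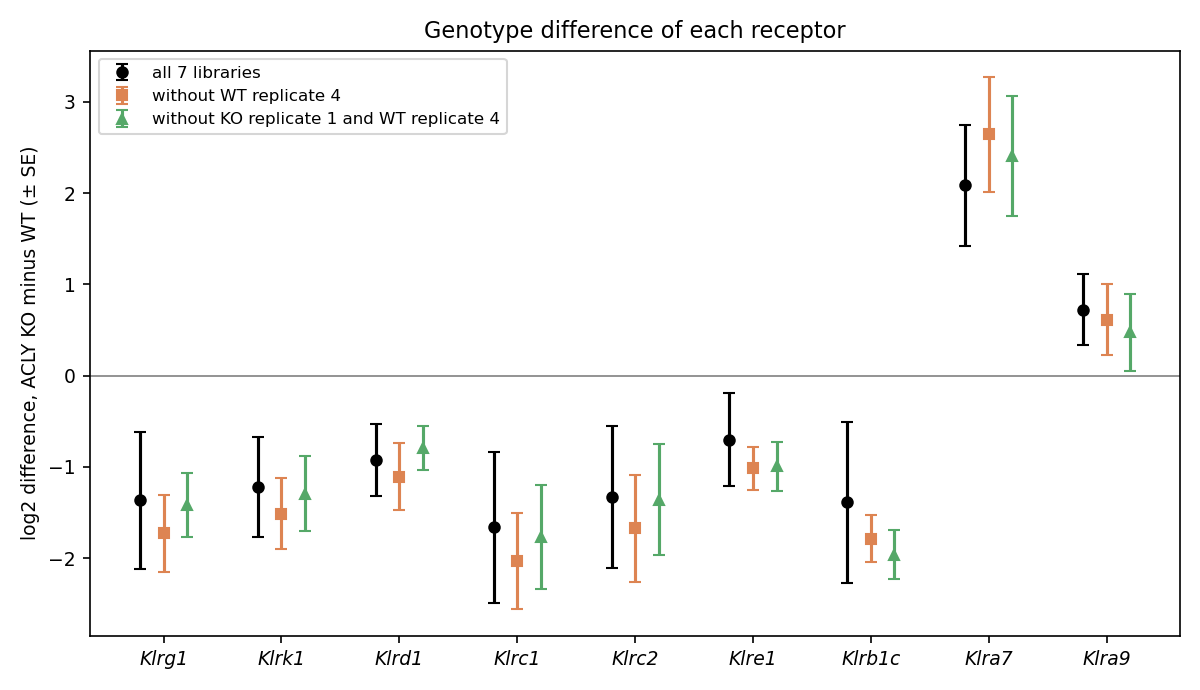
Log2 difference (ACLY KO minus WT, ± SE, from edgeR's quasi-likelihood fit) of each receptor with all 7 libraries (black circles), without WT replicate 4 (orange squares) and without both ACLY KO replicate 1 and WT replicate 4 (green triangles). The first 7 receptors lie below 0 and Klra7 and Klra9 above 0 in all 3 fits; Klre1 alone turned (to 0.0505) when scaled to T cell transcripts.

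Levels of different receptors were compared per kilobase of annotated exons. In ACLY KO the order was Klrd1 (195 ± 80.2 CPM per kb), Klrc1 (97.8 ± 73.1), Klrg1 (63.1 ± 31.6), Klrk1 (39.9 ± 22.4), Klrc2 (9.33 ± 7.88), Klrb1c (6.44 ± 1.79), Klre1 (5.81 ± 0.483), Klra7 (4.61 ± 1.67) and Klra9 (2.02 ± 0.509), each SD over n = 3. In WT it was Klrd1 (369.6 ± 133 CPM per kb), Klrc1 (309.7 ± 196), Klrg1 (163 ± 109), Klrk1 (92.8 ± 44.1), Klrc2 (23.4 ± 14.4), Klrb1c (16.9 ± 11.2), Klre1 (9.47 ± 5.29), Klra9 (1.23 ± 0.300) and Klra7 (1.08 ± 0.786), each SD over n = 4. The order of the first 7 was the same in both genotypes, and Klra7 and Klra9 changed places. Neighbours overlapped within 1 SD except Klrk1 with Klrc2 in both genotypes, Klra7 with Klra9 in ACLY KO and Klre1 with Klra9 in WT. Klrk1 (7183 bases) and Klrc2 (5812 bases) have the longest annotated exons.

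The 9 genes lie on chromosome 6, 8 of them in the natural killer gene complex and Klrg1 apart from it. The 250 bases before the RefSeq start (GRCm38.p6) of 4 receptors with lower ACLY KO means are shown, since they share a short sequence: the RUNX core motif TGTGGT, or ACCACA on the other strand, is in capitals. In the order shown they lie at chr6:129623865-129624114, chr6:129678974-129679223, chr6:129660597-129660846 (the first of its 2 entries) and chr6:128788642-128788891, all on the minus strand. By the GENCODE coordinates given above, the Klrb1c window lies wholly inside the gene. The Klrc2 window lies partly inside its gene, with both its motifs.
Klrk1: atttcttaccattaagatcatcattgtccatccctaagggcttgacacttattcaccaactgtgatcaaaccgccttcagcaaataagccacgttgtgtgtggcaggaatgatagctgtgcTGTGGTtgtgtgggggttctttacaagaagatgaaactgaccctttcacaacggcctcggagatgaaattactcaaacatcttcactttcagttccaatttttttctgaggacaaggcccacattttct
Klrc1: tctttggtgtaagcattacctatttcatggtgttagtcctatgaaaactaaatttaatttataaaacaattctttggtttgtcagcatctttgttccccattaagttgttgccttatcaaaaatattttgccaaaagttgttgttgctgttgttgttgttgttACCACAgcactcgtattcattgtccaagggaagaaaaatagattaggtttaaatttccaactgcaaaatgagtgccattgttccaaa
Klrc2: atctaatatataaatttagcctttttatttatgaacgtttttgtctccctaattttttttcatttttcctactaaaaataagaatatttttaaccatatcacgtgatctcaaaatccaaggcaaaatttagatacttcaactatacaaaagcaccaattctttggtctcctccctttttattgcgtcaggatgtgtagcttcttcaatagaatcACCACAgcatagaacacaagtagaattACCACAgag
Klrb1c: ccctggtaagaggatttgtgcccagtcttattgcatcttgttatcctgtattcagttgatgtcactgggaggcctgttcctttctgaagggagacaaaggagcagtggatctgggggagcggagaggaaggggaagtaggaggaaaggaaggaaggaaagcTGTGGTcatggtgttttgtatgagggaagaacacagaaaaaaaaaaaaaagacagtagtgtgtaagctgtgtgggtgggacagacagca

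Of the 9 receptors 7 had a RefSeq promoter entry, and Klrg1 and Klrd1 are named only. A RUNX core was present in 6 of their 10 entries, which belong to 5 of these 7 genes: Klrk1, Klrc1, Klrc2, Klre1 and Klrb1c. Of all 32851 promoter windows of this length, 14.1% held it. Klra7 and Klra9 had none. The T-box core AGGTGT, or ACACCT on the other strand, was in none of the 10 entries, against 11.8% of all windows. The RUNX motif was picked after these sequences were read, so its count is a description, and a match is not a binding site.

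Of 22 other genes of the family, 13 were measured and none passed in edgeR. At an unadjusted edgeR p under 0.05, 5 were higher and 1 lower (11.0% and 7.89% of all genes). DESeq2 called 3 higher and 0 lower (6.81% and 3.43% of all genes). The median log2 difference of the 13 was 1.44, with 9 above 0 and 4 below under every scaling tried. Klrc3 (NKG2E, next to Klrc2) was at 2.699, 1.98 and 4.71 CPM in ACLY KO replicates 1 to 3 and at 12.9, 15.5, 9.79 and 2.05 CPM in WT replicates 1 to 4 (log2 -1.68 ± 0.68, SE; edgeR adjusted p = 0.242). Its libraries stood much as those of Klrc1 and Klrc2, and 31.1% of its 50-base words also occur in Klrc2, so its level is uncertain. Klrb1f, an NKR-P1 receptor, was at 11.7 ± 2.04 CPM over the 3 ACLY KO libraries, against 11.7 ± 4.01 CPM over the 4 WT libraries.

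For Klra13-ps, Klra6, Klra1, Klra8 and Klra2, as for Klra7, every ACLY KO library lay above every WT library, which held for 9.46% of all genes. The pseudogene Klra13-ps was the most abundant of them, at 18.8, 50.2 and 27.1 CPM in ACLY KO replicates 1 to 3 and at 1.59, 1.44, 1.23 and 16.1 CPM in WT replicates 1 to 4 (log2 2.65 ± 1.01, SE; edgeR adjusted p = 0.217). WT replicate 4 stood just below the lowest ACLY KO library, far above the other WT libraries. Klra6 was at 1.31, 2.37 and 5.53 CPM in ACLY KO replicates 1 to 3 and at 0.0414, 0.0897, 0.0768 and 1.20 CPM in WT replicates 1 to 4 (edgeR adjusted p = 0.231). Klra1 (Ly49A, inhibitory) averaged 2.05 ± 0.712 CPM over the 3 ACLY KO libraries, against 0.397 ± 0.497 CPM over the 4 WT libraries. The 13 natural killer markers, of which 6 are family genes named here and 2 are adaptors named below, all had a log2 difference above 0, and their part in the Ly49 values was not tested.

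Klra8 (Ly49H, an activating receptor) and Klra2 (Ly49B, known from myeloid cells) were highest in ACLY KO replicate 1. Klra8 was at 9.22, 2.28 and 1.25 CPM in ACLY KO replicates 1 to 3 and at 0.204 to 1.05 CPM in WT (log2 2.83 ± 0.82, SE; edgeR adjusted p = 0.136), and Klra2 at 5.10, 0.466 and 2.51 CPM in ACLY KO and at 0 to 0.134 CPM in WT. Klri2 and Klra4 (Ly49D, activating) were at 8.74 and 9.41 CPM in ACLY KO replicate 1 and below 1 CPM in the other ACLY KO libraries. In WT they were at 0.422 to 1.71 and at 0 to 2.48 CPM, and the count of 0 for Klra4 was in WT replicate 4. Klra3 (Ly49C, inhibitory) averaged 9.84 ± 7.8 CPM over the 3 ACLY KO libraries, against 6.02 ± 3.61 CPM over the 4 WT libraries. The pseudogene Klra14-ps stood apart from its Ly49 neighbours, at 2.65, 0.512 and 0.384 CPM in ACLY KO replicates 1 to 3 and at 3.61, 4.85, 3.02 and 0.424 CPM in WT replicates 1 to 4. Of the 50-base words of Klra8 20.4% occur in Klra14-ps, so their levels are uncertain.

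**Figure D4:**
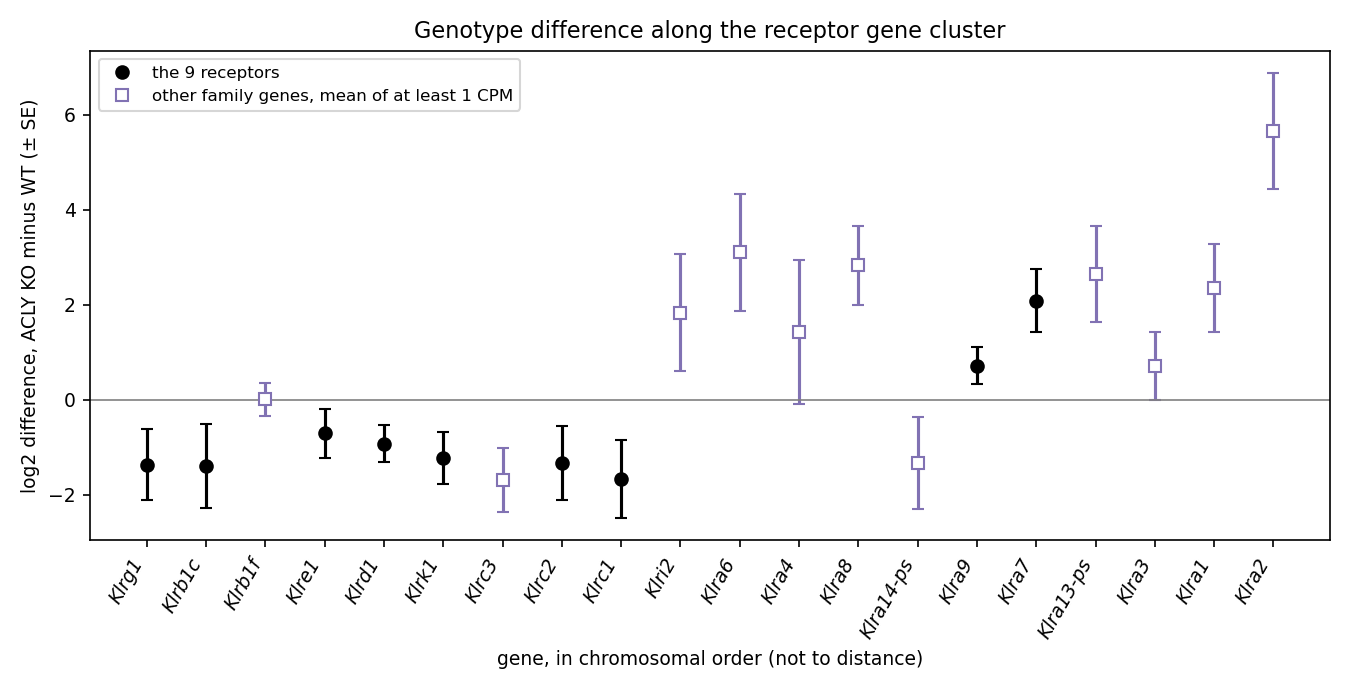
Log2 difference (ACLY KO minus WT, ± SE, edgeR) of the 9 receptors (black circles) and the other family genes with a mean of at least 1 CPM (open squares), in their order along chromosome 6. From Klre1 to Klrc1 the genes lie below 0 (Klre1 turned to 0.0505 when scaled to T cell transcripts), and from Klri2 on they lie above 0 except Klra14-ps. None passed the adjusted threshold.

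The means of the adaptors of the activating receptors differed in opposite directions, and none passed in edgeR. Hcst, the adaptor of NKG2D in T cells, was at 107, 168 and 202 CPM in ACLY KO replicates 1 to 3 and at 356, 465, 326 and 190 CPM in WT replicates 1 to 4 (log2 -1.08 ± 0.34, SE; edgeR adjusted p = 0.153), so its libraries stood much as those of Klrd1. Tyrobp, the adaptor of NKG2C and of activating Ly49 receptors, was at 111, 11.6 and 35.9 CPM in ACLY KO replicates 1 to 3 and at 3.34 to 6.60 CPM in WT (edgeR adjusted p = 0.0710). Fcer1g, which serves NK1.1, was at 91.9, 10.4 and 64.4 CPM in ACLY KO replicates 1 to 3 and at 0.786 to 2.58 CPM in WT (edgeR adjusted p = 0.0652). Both adaptors are also strongly expressed in myeloid cells, whose C1qa levels are given above, and their part in these values was not tested. Syk, a kinase that these adaptors recruit and B cells express, was at 451, 8.26 and 28.0 CPM in ACLY KO replicates 1 to 3 and at 0.102 to 1.37 CPM in WT (edgeR adjusted p = 0.0733). Sh2d1a, the adaptor SAP of SLAM receptors, was at 78.0 ± 22.9 CPM over the 3 ACLY KO libraries, against 157 ± 30.4 CPM over the 4 WT libraries (edgeR adjusted p = 0.0973), with every ACLY KO library below every WT library. Of the 19 adaptor and signalling genes measured of 20 listed, edgeR called none, with an unadjusted p under 0.05 for 3 higher and 3 lower (11.0% and 7.89% of all genes). DESeq2 called 3 higher and 2 lower (6.81% and 3.43% of all genes). The median log2 difference was -0.15, and 0.44 when scaled to T cell transcripts.

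No gene for a ligand of the receptors passed in edgeR. H2-T23 (Qa-1), the class I molecule that CD94 and NKG2 heterodimers bind, was at 511 ± 54.9 CPM over the 3 ACLY KO libraries, against 413 ± 61.0 CPM over the 4 WT libraries (edgeR adjusted p = 0.364). H60b, a ligand of NKG2D, was at 4.12 ± 0.305 CPM over the 3 ACLY KO libraries, against 2.07 ± 0.406 CPM over the 4 WT libraries, with every ACLY KO library above every WT library (edgeR adjusted p = 0.164). Its exons overlap those of Raet1e on the same strand over 11.0% of their length, so its level is uncertain. Ulbp1 (MULT1), another ligand of NKG2D, was at 3.37 ± 1.8 CPM over the 3 ACLY KO libraries, against 8.91 ± 7.78 CPM over the 4 WT libraries, where WT replicate 4 alone was at 20.6 CPM. Clec2d, a ligand of an NKR-P1 receptor, was at 5.82 ± 3.49 CPM over the 3 ACLY KO libraries, against 11.2 ± 3.88 CPM over the 4 WT libraries. Of 21 ligand genes listed 10 were measured, and 1 of them, H60b, had an unadjusted edgeR p under 0.05 and was called higher by DESeq2 (11.0% and 6.81% of all genes were counted higher). Their median log2 difference was 0.08, with 5 above 0 and 5 below, and 9 above 0 when scaled to T cell transcripts, Clec2d among them.

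Genes known to accompany Klrg1 in terminal effector cells had lower means too. All 9 of that list were below 0 under every scaling tried, with a median log2 difference of -1.06, and of -0.43 when scaled to T cell transcripts. edgeR called none, and DESeq2 called 3 lower, the same 3 that had an unadjusted edgeR p under 0.05 (3.43% and 7.89% of all genes were counted lower). These were Tbx21 (T-bet), Prdm1 (Blimp-1) and Gzmb. Prdm1 was at 26.6 ± 9.96 CPM over the 3 ACLY KO libraries, against 50.9 ± 4.25 CPM over the 4 WT libraries (edgeR adjusted p = 0.128). Tbx21 was at 189, 167 and 392 CPM in ACLY KO replicates 1 to 3 and at 670, 602, 639 and 537 CPM in WT replicates 1 to 4 (edgeR adjusted p = 0.0942). Gzmb, the protease granzyme B, was at 72.6, 52.0 and 159 CPM in ACLY KO replicates 1 to 3 and at 264, 305, 246 and 156 CPM in WT replicates 1 to 4 (edgeR adjusted p = 0.147). WT replicate 4 was below WT replicates 1 to 3 for all 9 genes, from Prdm1 (44.9 CPM, against a mean of 52.9 CPM in the others) to S1pr5, a sphingosine phosphate receptor (24.1 CPM, against 322 CPM). Over all genes it was below those libraries for 40.8%. Cx3cr1, the fractalkine receptor, was at 92.5 ± 44.1 CPM over the 3 ACLY KO libraries, against 176 ± 59.5 CPM over the 4 WT libraries.

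Of 10 memory precursor and naive genes, 7 were above 0 (median log2 0.63), and Eomes also turned positive when scaled to T cell transcripts. edgeR called none of them, and DESeq2 called 4 higher and 1 lower, in each case those with an unadjusted edgeR p under 0.05. DESeq2 called 6.81% of all genes higher and 3.43% lower. The gene that was lower was Cxcr3, a chemokine receptor of effector cells, at 172, 172 and 346 CPM in ACLY KO replicates 1 to 3 and at 494, 361, 485 and 606 CPM in WT replicates 1 to 4 (log2 -1.08 ± 0.30, SE; edgeR adjusted p = 0.13). Bach2, a repressor of effector genes, was at 100.4 ± 32.8 CPM over the 3 ACLY KO libraries, against 31.4 ± 6.32 CPM over the 4 WT libraries (edgeR adjusted p = 0.0652), and Bcl2, a survival factor, at 219 ± 61.2 CPM over the ACLY KO libraries, against 91.8 ± 39.3 CPM over the WT libraries. Ccr7 guides cells into lymph nodes. It was at 178, 798 and 600.0 CPM in ACLY KO replicates 1 to 3, against 112 ± 13.7 CPM over the 4 WT libraries. WT replicate 4 was above WT replicates 1 to 3 for 5 of the 10 genes, Bcl2 among them (149.5 CPM, against a mean of 72.5 CPM), and below them for 3. Over all genes it was above those libraries for 38.0% and below them for 40.8%.

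Among 11591 genes with a symbol and a mean of at least 1 CPM, those whose log2 CPM followed each receptor most closely over the 7 libraries were named by Pearson's r, as a description of libraries that share depth and make-up. For Klrk1 these were Id2 (r = 0.99), a regulator of effector cells, and Kctd2 (r = 0.99), and for Klrc1 they were Kctd2 and Id2 (both r = 0.99). Id2 was at 514, 392 and 992 CPM in ACLY KO replicates 1 to 3 and at 1724, 1821, 1444 and 446 CPM in WT replicates 1 to 4. Klrg1 was followed by Slc35d2 and by Gzma, which encodes granzyme A (both r = 0.99). Gzma was at 207, 406 and 521 CPM in ACLY KO replicates 1 to 3 and at 799.7, 1430, 768 and 152 CPM in WT replicates 1 to 4. The closest genes were Ms4a6b and Insl6 for Klrd1, Golm2 and Nae1 for Klrc2, Dlg4 and Rhot1 for Klrb1c, and Zmym3 and Zfp952 for Klre1 (r from 0.98 to 0.995). Klra7 was followed by Sbf2 (r = 0.99) and Fubp1 (r = 0.97), and Klra9 by Crb3 (r = 0.98) and Efcab2 (r = 0.97).

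The receptors were also set against the summed counts of Cd3d, Cd3e, Cd3g, Cd8a and Cd8b1. Klrk1 then had 107, 36.6 and 96.4 counts per 1000 T cell counts in ACLY KO replicates 1 to 3, against 129, 179, 139 and 44.7 for WT replicates 1 to 4. ACLY KO replicate 1, which had the lowest sum of T cell markers, came nearer to the WT libraries on this scale. Other CD8 T cells also express these markers, so the scale does not single out OT-I cells. Trbv12-1 and Trbv12-2 together took their lowest share of Trbv counts, 23.2%, in ACLY KO replicate 2, where Trbv12-2 exceeded Trbv12-1. The part of other T cells in these values was not tested. Klrc1 had 65.8, 19.3 and 73.7 counts per 1000 in ACLY KO and 117, 191, 126 and 16.3 in WT, and Klrg1 had 25.7, 16.3 and 27.9 in ACLY KO and 41.1, 77.3, 44.2 and 6.73 in WT. For both genes ACLY KO replicates 1 to 3 lay between WT replicate 4 and WT replicates 1 to 3. Klra7 had 4.15, 0.707 and 1.25 counts per 1000 in ACLY KO and 0.0657 to 0.573 in WT. With this scaling edgeR called none of the 9 receptors.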

How the data were processed

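RNA sequencing was made for 3 ACLY KO and 4 WT libraries. The submitters' processing notes name Trim Galore 0.6.0, STAR 2.7.8, the build mm10 and DESeq2 (no version). Read counter, annotation, strandedness and filters: not given in the sources used here. As a table the authors deposited raw counts of 16156 genes. Their deposited log2 CPM, which supplied the symbols, were matched within 4.99e-09 by edgeR's TMM-scaled values with a prior count of 2. Coordinates, exons, transcripts and missing symbols came from GENCODE M21 (mm10), and promoters from RefSeq (GRCm38.p6). No per-sample column was left unused.

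CPM values were computed here from the deposited counts with TMM scaling, where 3 counts equal 0.0414 to 0.0802 CPM. The comparison used edgeR 4.0.16 in R 4.3.3 (quasi-likelihood test, genotype only, Benjamini-Hochberg adjustment over all genes, threshold 0.05), and filterByExpr removed 0 genes. The members and lists were chosen with earlier results of these data known. Named were the family genes with a mean of at least 1 CPM, in each pathway list the 4 genes with the smallest unadjusted p plus Hcst, Tyrobp, Fcer1g and H2-T23, the 2 highest genes of each marker list, and the 2 genes most like each receptor. C1qa, Cd4, Eomes, Cxcr3 and S1pr5 were named after their values were seen. One gene that this rule named is not reported here. Alternatives were median-of-ratios, upper-quartile and T cell transcript scaling, no filter on low counts, only genes averaging at least 10 counts, DESeq2 1.42.0, limma 3.58.1 (voom with quality weights), edgeR's bias-adjusted fit, the replicate number as a block, and libraries left out. Exons of Sh2d1a, Bach2, Bcl2, Cx3cr1, S1pr5, Eomes and Cd3e overlap genes on the other strand, so these levels are uncertain. The scripts were tested on simulated data.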

Additional observations from a re-analysis of the deposited data

Results flagged for a closer look

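The Klrc1 share of Klrc1 and Klrc2 counts in WT replicate 4, 75.9%, lay far from the other WT libraries (81.6% to 82.5%), with a gap of 0.872 of the group's range. Chance gives such a gap in about 1 in 20 groups of this kind, and 10 measures were looked at. In the same library Klrc1 was at 76.6 CPM and Klrc2 at 24.3 CPM, against means of 794 and 173 CPM in WT replicates 1 to 3.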

How the results depend on the processing

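None of the 9 receptors passed in edgeR's fit to all 7 libraries, so keeping a side of the threshold below means not passing. The fit with no filter on low counts repeated that fit, since 0 genes had been removed. T cell transcript scaling moved log2 differences up, from -1.22 to -0.62 for Klrk1, -1.39 to -0.48 for Klrb1c and 2.09 to 2.91 for Klra7. Of 153 recomputed values for the 9 receptors, 147 kept their direction and their side of the threshold. The exceptions were Klrk1 with limma voom (log2 -1.59), Klra7 with DESeq2 (2.11) and with limma voom (2.53), Klrb1c without WT replicate 4 (-1.79) and without both ACLY KO replicate 1 and WT replicate 4 (-1.96), which passed, and Klre1 with T cell transcript scaling, which turned to 0.0505 (-0.67 relative to the median of all genes, which this scaling moved by 0.72). With single libraries left out the log2 differences ranged from -1.81 to -0.94 for Klrg1, -1.78 to -0.99 for Klrk1, -1.18 to -0.62 for Klrd1, -2.47 to -1.32 for Klrc1, -2.29 to -0.97 for Klrc2, -1.02 to -0.38 for Klre1, -1.79 to -1.13 for Klrb1c, 1.77 to 2.64 for Klra7 and 0.56 to 0.91 for Klra9. Over all genes edgeR called 0 higher and 0 lower, but DESeq2 called 1032 and 520, limma voom 860 and 272, the bias-adjusted fit 497 and 77, T cell transcript scaling 293 and 0, and edgeR without both ACLY KO replicate 1 and WT replicate 4 864 and 668. Leaving out single libraries gave 0 to 142 higher and 0 to 48 lower: 111 and 48 without ACLY KO replicate 1, 118 and 2 without replicate 2, 142 and 47 without replicate 3, 108 and 21 without WT replicate 4, and 0 without any other WT library. The cause was not tested. With the replicate number as a block edgeR called 0 and 0, and Klrc1 was at log2 -2.27 and Klra7 at 2.80. Deviations of same-numbered libraries from their group means correlated with r = -0.11, -0.05 and 0.14. Correlations this weak cannot tell whether the numbers pair libraries. The Klrc1 share difference ranged from -3.22 to -0.762 percentage points with single libraries left out and was -4.04 without both libraries. It missed the threshold with all 7 libraries (exact permutation p = 0.429). With libraries left out, too few splits remain for this test to pass the threshold at all, so its p-values there decide nothing.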
